A study of Homo sapiens with 96 samples.

Results

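The comparison described here is the addition of the LSD1 inhibitor GSK2879552 to all-trans retinoic acid (ATRA) in MV411 cells. It set 4 libraries of cells given both drugs, labelled Combo, against 4 libraries of cells given ATRA alone, 8 of the 96 libraries of the series, chosen by their labels. MV411 is a human acute myeloid leukaemia line of monoblastic type that carries a KMT2A fusion and an internal tandem duplication of FLT3. Combo cells received 1 µM GSK2879552 and 100 nM ATRA, ATRA cells received 100 nM ATRA, and both were harvested after 2 or 4 days, with 2 replicates for each drug and day. For comparison, MV411 cells with 0.1% DMSO as vehicle and cells with 1 µM GSK2879552 alone, labelled 552A, were read at the same days. 552A was read as GSK2879552 from the digits they share. The design asked how the 2 drugs act alone and together. All groups are 1 cell line, and the labels do not say whether replicates are separate cultures. The p-values then reflect only how far these libraries vary, which may be technical.

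LSD1, encoded by KDM1A, removes methyl groups from lysine 4 of histone H3 and silences enhancers together with the corepressor RCOR1 and the zinc-finger repressors GFI1 and GFI1B. Inhibitors of LSD1 are known to release GFI1-repressed myeloid genes, among them CD86, in leukaemic blasts. ATRA binds the retinoic acid receptors, induces its own catabolic enzymes of the CYP26 family, and drives granulocytic maturation in promyelocytic leukaemia.

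The 8 libraries held 15.18 M to 29.25 M counts, and mitochondrially encoded genes took 0.614 to 1.314% of them. Levels are given as CPM, a gene's count scaled to a common library total and composition, and they compare a gene between libraries, not genes with each other. Libraries also differed along a trend with gene GC content, measured as the slope of a library's log2 level on GC content against the mean of all MV411 libraries. The slope per 10 percentage points of GC was 0.065 to 0.31 in the 4 ATRA libraries and -0.72 to 0.054 in the 4 Combo libraries, with Combo day 4 replicate 2 lowest and apart from the rest. The trend moved with treatment, so results were also read with offsets for GC content and gene length and without that library. Among the libraries read for comparison, DMSO day 4 replicate 2 was at -0.58 and 552A day 4 replicate 1 at -0.41. The other DMSO and 552A libraries were at 0.15 to 0.34. Markers of other cell types were near the floor: EPCAM, KRT19, COL1A1, COL3A1 and HBB had 0 counts in all 8 libraries, and CD3D, CD3E and LCK summed to at most 0.17 CPM. Monoblast markers fixed for the line (CD33, SPI1, LYZ, FLT3, MEIS1 and HOXA9, with CSF2RA at 0 counts) summed to 1399 to 2030 CPM with ATRA and 1722 to 2266 CPM with Combo. Why CSF2RA had 0 counts was not tested, and the 0 alone does not show that the gene is silent. CD14, the lipopolysaccharide coreceptor of mature monocytes, was too low to test.

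Adding the inhibitor to ATRA changed many genes in both directions. Of 18289 genes tested over both days, 5878 passed an adjusted p of 0.05 (32.1%), 3128 higher with Combo (17.1%) and 2750 lower (15%). Antigen presentation by HLA class II, a set of stem cell genes and GFI1B were higher, whereas cholesterol synthesis, azurophil granule, DNA replication and, at day 4, interferon-stimulated genes were lower. In a fit with a group for each drug and day, 896 genes passed at day 2 (4.9%) and 3520 at day 4 (19.2%). These counts do not rank the days: they ranged from 195 to 3918 and from 896 to 8624 on leaving out 1 library, were 3565 and 5528 with GC and length offsets, and turned to 3578 and 1294 in fits of the 4 libraries of each day. With GC and length offsets 3750 genes were called higher and 3177 lower, and without Combo day 4 replicate 2 the counts were 3045 and 3139. Leaving out ATRA day 4 replicate 2 gave 1703 higher and 1231 lower genes, ATRA day 4 replicate 1 gave 1940 and 1658, ATRA day 2 replicate 1 gave 2158 and 1685, and Combo day 2 replicate 2 gave 2149 and 1605. By levels alone, ATRA and Combo libraries did not overlap on either day, in 1 direction, for 43% of genes. In the plot of gene lists, each list is set against these shares for all genes.

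**Figure D1:**
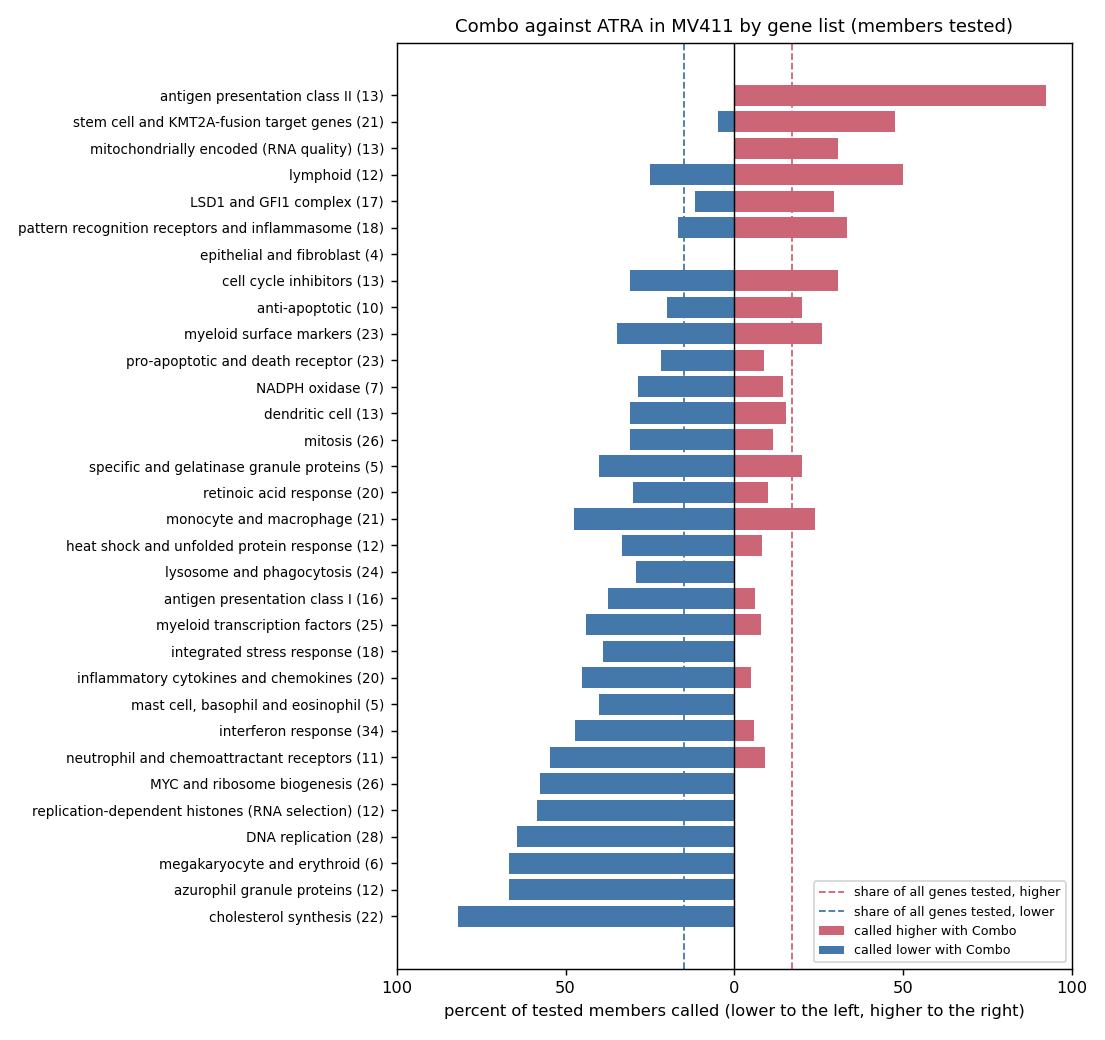
Percent of the tested members of each gene list that were called higher (right, red) or lower (left, blue) with Combo than with ATRA in MV411 over both days. Dashed lines give the shares of all genes tested, 17.1% higher and 15% lower, and 12 of 13 class II genes lay to the right while 18 of 22 cholesterol genes lay to the left.

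GFI1B, the paralog of GFI1 that recruits LSD1 to chromatin in erythroid and megakaryocytic cells, headed the named rises. The gene (ENSG00000165702.12, GRCh38 chr9:132944000-132991687, plus strand) had 0 counts in all 4 ATRA libraries. With Combo it reached 11.8 and 6.27 CPM at day 2 and 34.2 and 8.61 CPM at day 4. The bound set by 3 counts over the ATRA group was at least 479-fold higher with Combo (edgeR adjusted p = 0.00036). The inhibitor alone gave 0.363 to 2.79 CPM and DMSO at most 0.0839 CPM, so the Combo libraries lay above those of every other arm. The difference from the effect of the inhibitor without ATRA did not pass (adjusted p = 0.14). Most other erythroid and megakaryocytic genes were too low to read: of 21 listed members 16 stayed under 1 CPM in all 8 libraries. Only 6 were tested, and none of these was called higher. The 4 called lower (background 15%) were TFRC, the transferrin receptor, NFE2, GYPC and EPOR.

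Among the named rises were several receptors and accessory proteins of immune cells, grouped here by function and not by rank. FCRLA, an Fc receptor-like protein of B cells, had 1 count in the ATRA group and 1249 with Combo, a ratio of 1271 with a 95% counting interval of 228 to 50243. Its level was 14.7 and 20.7 CPM at day 2 and 8.2 and 7.9 CPM at day 4 with Combo, below the 47.2 to 86.7 CPM with the inhibitor alone. CD300E, an activating receptor of monocytes, had 3 counts with ATRA and 438 with Combo, a ratio of 149 (counting interval 50.5 to 723). LY96, the MD-2 protein that pairs with TLR4 to bind lipopolysaccharide, was at 0.247 to 0.329 CPM with ATRA and 11.9 to 21.4 CPM with Combo, a rise of 5.67 ± 0.29 (log2, SE). CD86, a ligand that costimulates T cells, was at 0.288 and 0.329 CPM at day 2 and 1.66 and 1.07 CPM at day 4 with ATRA. With Combo it was at 13.9, 16.3, 20.2 and 27.4 CPM, 26.5-fold higher (log2 4.73 ± 0.33, adjusted p = 2e-05). For LY96 and CD86 the ATRA and Combo ranges did not overlap. Within each day this was a condition for naming them, as for FCRLA and CD300E. DMSO libraries were at 0.182 to 1.53 CPM for LY96 and 1.69 to 4.43 CPM for CD86, below all Combo libraries.

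Further leading rises were spread over functions. FCGR2B, the inhibitory receptor for IgG, rose by 5.75 ± 0.45, though reads may be shared with its near-identical paralog FCGR2C. RTN4RL1, a Nogo receptor homologue, rose by 6.14 ± 0.49, and PLVAP, a protein of endothelial diaphragms, by 6.00 ± 0.57. PIGR, which carries IgA across epithelia, rose by 5.59 ± 0.30 and TBC1D4, a Rab GTPase regulator of glucose transporter traffic, by 5.36 ± 0.38. RBM47, an RNA-binding protein, rose by 4.69 ± 0.32. The histone demethylase KDM7A rose from 0.123 to 0.502 CPM with ATRA to 5.05 and 6.93 CPM at day 2 and 20.9 and 37.1 CPM at day 4 with Combo. ALDH1A3, an enzyme that makes retinoic acid from retinaldehyde, rose by 4.75 ± 0.51, from 0.201 to 0.436 CPM to 2.56 and 3.54 CPM at day 2 and 20 and 22 CPM at day 4. GCNT2, an enzyme that branches glycans, had 0 counts with ATRA and 216 with Combo, at least 73.3-fold higher. Each of these genes had its lowest Combo library above its highest ATRA library on both days. The rule for naming them required this of all but GCNT2, which was named for its difference from the effect without ATRA.

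**Figure D2:**
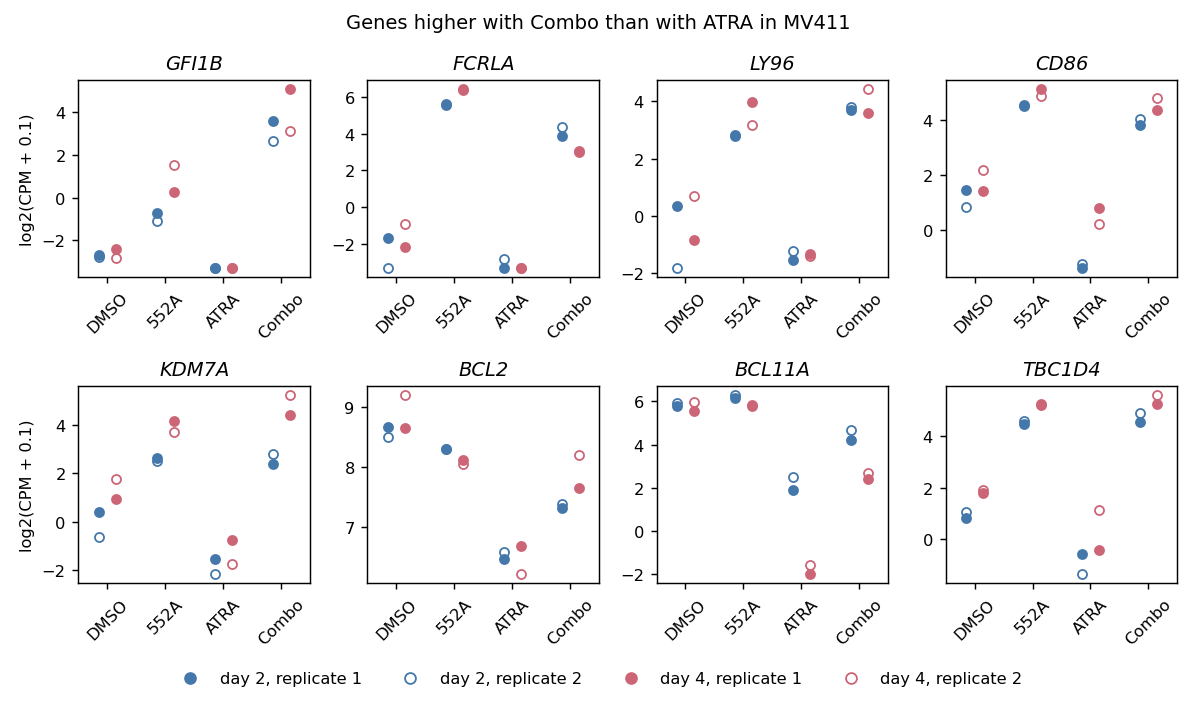
Level of 8 genes in each of the 16 MV411 libraries as log2(CPM + 0.1), by treatment (DMSO, 552A, ATRA, Combo), with day 2 in blue and day 4 in red and replicate 2 open. All Combo points lie above all ATRA points of the same day, and GFI1B is at 0 counts in the 4 ATRA libraries. The naming rule required this separation of GFI1B, FCRLA, LY96, CD86, KDM7A and TBC1D4.

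HLA class II genes, which present peptides to helper T cells, rose together. Of the 14 members listed 13 were tested, 12 were called higher and none lower, with a median log2 fold change of 3.10 against -0.01 over all genes. The count was 13 higher with GC and length offsets. CIITA, the transactivator that switches on the class II genes (chr16:10866222-10943021), was at 9.64 and 11.7 CPM at day 2 and 47.7 and 62.2 CPM at day 4 with ATRA. With Combo it was at 78.6 and 81.2 CPM at day 2 and 232 and 149 CPM at day 4, a rise of 2.35 ± 0.25 (adjusted p = 0.00021). HLA-DRA, the alpha chain of HLA-DR, rose from 4.57 and 4.81 CPM at day 2 and 38.7 and 45.9 CPM at day 4 to 97.6, 99.1, 333 and 377 CPM. HLA-DQA1 rose by 5.88 ± 0.35, from 0.0411 to 1.9 CPM to 4.07 to 86 CPM. CD74, the class II chaperone, rose by 2.05 ± 0.29 and HLA-DMA, which loads the peptides, by 2.85 ± 0.18. Every Combo library exceeded both ATRA libraries of its day for CIITA, HLA-DRA, HLA-DQA1, CD74 and HLA-DMA. For HLA-DQA1, a leading rise, the rule for naming it required this. The HLA-DR and HLA-DQ rows belong to paralogous genes among which reads may be split. Each drug alone also raised the list: 13 of 13 tested members were called higher with 552A against DMSO (background 5.91% higher) and 13 of 13 with ATRA against DMSO (background 11% higher). The difference between the inhibitor effects with and without ATRA had a median of 0.29 over these genes and passed for 1 of 13, lower with ATRA.

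Promoters of the class II genes show the shared letters on which their known regulators sit. RefSeq promoter windows (GRCh38.p14) were at hand for 11 of the 14 members, and the 250 bases before the gene start held GATTGG, the core of the inverted CCAAT or Y box, on either strand in 7 of them (63.6%) against 14.6% of 27305 promoters. The windows of HLA-DRB1 and HLA-DMA are shown because both genes rose and hold a single match, in capitals. The HLA-DRB1 window is chr6:32589849-32590098 and the HLA-DMA window chr6:32953098-32953347, both on the minus strand, with the match starting 47 and 80 bases before the RefSeq gene start, which for HLA-DMA lies inside the longer GENCODE gene.
HLA-DRB1: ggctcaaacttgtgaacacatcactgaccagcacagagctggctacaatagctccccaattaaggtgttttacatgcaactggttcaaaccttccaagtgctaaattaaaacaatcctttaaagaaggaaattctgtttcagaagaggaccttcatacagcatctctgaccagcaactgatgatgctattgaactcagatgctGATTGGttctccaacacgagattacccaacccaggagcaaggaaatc
HLA-DMA: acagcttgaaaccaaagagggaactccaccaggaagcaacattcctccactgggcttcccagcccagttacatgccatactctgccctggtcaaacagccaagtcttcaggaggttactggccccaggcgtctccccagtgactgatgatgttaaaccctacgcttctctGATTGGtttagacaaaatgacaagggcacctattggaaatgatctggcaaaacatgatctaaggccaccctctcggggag
HLA-DRB1 itself was 7.98-fold higher, rising from 7.12 and 7.65 CPM at day 2 and 35.2 and 37.4 CPM at day 4 to 84, 75.2, 251 and 180 CPM. A match describes letters only and is not evidence of binding here.

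Interferon-stimulated genes were lower with Combo at day 4, and few were called at day 2. The members named here stood high in the day 4 ATRA libraries and low with Combo, apart from GBP1 and GBP2. At day 4, 30 of the 34 tested members were lower with Combo and 2 higher (background 8.73% lower and 10.5% higher), with a median log2 fold change of -3.10. At day 2, 2 were lower and 4 higher, with a median of -0.11 (background 1.36% lower and 3.54% higher). Over both days 16 were lower and 2 higher, and 7 were lower without Combo day 4 replicate 2. With GC and length offsets 12 were lower and 3 higher, with a median of -1.55. ATRA against DMSO, which shares the ATRA libraries, called 27 of the 34 higher and none lower (background 11% higher and 13.2% lower). The inhibitor alone against DMSO called 4 higher and 3 lower (background 5.91% higher and 3.92% lower). IFIT1, which binds RNA lacking the host cap (ENSG00000185745.9, chr10:89392546-89406486), was at 1.77 and 0.329 CPM at day 2 and 116 and 83 CPM at day 4 with ATRA. With Combo it was at 0.273 and 0.0815 CPM at day 2 and 1.19 and 1.16 CPM at day 4, with a log2 fold change over both days of -5.53 ± 0.78 (adjusted p = 0.00098). OAS2, an enzyme that activates RNase L, was at 9.43 and 6.54 CPM at day 2 and 153 and 136 CPM at day 4 with ATRA, and at 11.4, 13, 9.13 and 9.64 CPM with Combo. MX2, a GTPase that blocks viral entry to the nucleus, was at 11.1, 8.1, 148 and 132 CPM with ATRA and 16.6, 16.7, 11.9 and 8.67 CPM with Combo. Neither passed over both days (-1.68 ± 0.88 and -1.48 ± 0.89), and both were lower at day 4, by -3.94 and -3.75 with adjusted p of 5.2e-05 and 5.9e-05. In both genes the 4 Combo libraries lay near the day 2 ATRA libraries, and the day 4 ATRA libraries stood above both. SIGLEC1, the sialoadhesin of macrophages that interferon induces, had a log2 fold change of -7.04 ± 0.81, from 38.3 and 47.6 CPM at day 4 with ATRA to 0.265 and 0.0642 CPM.

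The members called higher were GBP1 and GBP2, GTPases of the guanylate-binding family. In the same family GBP5 was called lower over both days, and GBP4 and GBP5 at day 4. GBP1 rose by 3.23 ± 0.58, from 0.124 and 0.0411 CPM at day 2 and 0.804 and 0.912 CPM at day 4 to 5.36, 3.71, 3.13 and 3.47 CPM. GBP2 rose by 2.32 ± 0.22, from 4.2 to 12.6 CPM with ATRA to 31.5 to 45.5 CPM with Combo. Both also rose with the inhibitor alone, by 5.38 ± 0.53 and 1.77 ± 0.24.

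Of the 34 interferon members, 24 had a RefSeq promoter window, and 15 of these (62.5%) held the interferon-stimulated response element, searched on either strand as GAAA, any 2 bases and GAAA again, against 3.07% of 27305 promoters. IFIT1 and ISG15 are shown because both fell and hold 2 matches each, in capitals. The IFIT1 window is chr10:89392373-89392622 and the ISG15 window chr1:1013247-1013496, both on the plus strand. Counted from the RefSeq gene start, which follows the window's end and lies inside the GENCODE gene of IFIT1 and of ISG15, matches start 116 and 103 bases upstream in IFIT1 and, overlapping, 113 and 107 bases upstream in ISG15.
IFIT1: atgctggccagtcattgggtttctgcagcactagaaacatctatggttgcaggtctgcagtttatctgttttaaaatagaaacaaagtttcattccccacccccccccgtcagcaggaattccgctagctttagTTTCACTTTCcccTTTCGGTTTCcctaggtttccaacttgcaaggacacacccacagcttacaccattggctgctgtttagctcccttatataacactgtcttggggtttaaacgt
ISG15: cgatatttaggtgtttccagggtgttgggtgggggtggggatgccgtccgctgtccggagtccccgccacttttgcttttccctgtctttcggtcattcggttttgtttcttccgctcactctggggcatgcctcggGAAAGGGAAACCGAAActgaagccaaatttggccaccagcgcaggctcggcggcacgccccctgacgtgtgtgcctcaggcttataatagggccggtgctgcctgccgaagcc
ISG15, a ubiquitin-like modifier, was at 12.1, 7.94, 90.6 and 120 CPM with ATRA and at 6.48, 2.93, 9.7 and 1.93 CPM with Combo. Its log2 fold change over both days was -2.63 ± 0.70 (adjusted p = 0.019), a call lost without Combo day 4 replicate 2 (adjusted p = 0.078).

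**Figure D3:**
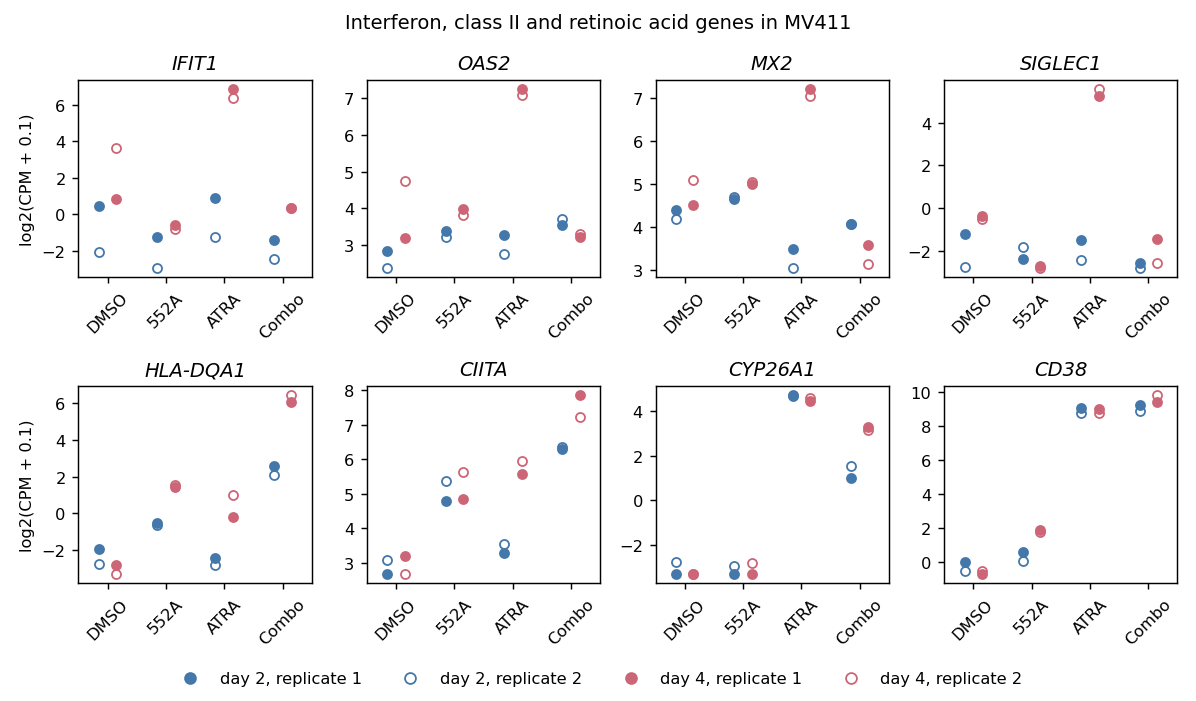
Level of 4 interferon-induced genes (IFIT1, OAS2, MX2, SIGLEC1), 2 class II genes (HLA-DQA1, CIITA) and 2 retinoic acid targets (CYP26A1, CD38) in each of the 16 MV411 libraries as log2(CPM + 0.1), by treatment, with day 2 in blue and day 4 in red and replicate 2 open. The interferon genes are highest in the day 4 ATRA libraries, class II genes are highest with Combo, and CYP26A1 lies between ATRA and DMSO with Combo.

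A list of retinoic acid response genes did not move as a group. With ATRA against DMSO, 14 of 20 tested members were called higher and 1, DHRS9, lower. With Combo against ATRA, 2 of 20 were higher and 6 lower, DHRS9 among the lower. The median of -0.37 turned to 0.13 with GC and length offsets, under which 6 were higher and 5 lower. CYP26A1, the enzyme that degrades retinoic acid (ENSG00000095596.11, chr10:93073475-93077890), was at 25.3, 26, 21.5 and 24 CPM with ATRA and at most 0.0456 CPM with DMSO. With Combo it was at 1.88 and 2.77 CPM at day 2 and 9.52 and 8.87 CPM at day 4, 5.05-fold lower (adjusted p = 0.0026). All 4 Combo libraries lay below all ATRA libraries and far above DMSO. Its paralog CYP26B1 was at 1.11 to 3.57 CPM with ATRA and at most 0.163 CPM with Combo (log2 fold change -5.02 ± 0.62). TGM2, the tissue transglutaminase, was 1.98-fold lower, and DHRS3, which reduces retinal, was 1.35-fold lower. DHRS3 was at 277 to 409 CPM with Combo against at most 0.157 CPM with DMSO. SMAD3, a mediator of TGF-beta signals, rose by 1.16 ± 0.12. CD38, a marker of ATRA response, was at 436 to 537 CPM with ATRA and 470 to 888 CPM with Combo. It did not pass over both days (0.45 ± 0.17, adjusted p = 0.066), but was called higher at day 4 and in the fit of 16 libraries. The receptor gene RARA did not pass over both days (-0.94 ± 0.35, adjusted p = 0.060). The difference from the inhibitor effect without ATRA passed for 4 of the 20 members, CD38, RARRES3, HIC1 and TGM2. All 4 were lower with ATRA present (background 1.27% lower). MYBPH, a myosin-binding protein gene induced by ATRA in these cells, was at 461, 523, 320 and 598 CPM with ATRA and 63.4, 85.2, 41.2 and 15.8 CPM with Combo, 10.2-fold lower.

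Factors of myeloid maturation were lower more often than higher. Of 25 transcription factors 11 were lower and 2 higher, RUNX3 and MITF, with a median of -0.79 (-0.39 with GC and length offsets, with 8 lower). CEBPA, a master factor of granulocyte and monocyte fate (ENSG00000245848.2, chr19:33299934-33302564), was at 153, 142, 101 and 125 CPM with ATRA. Combo libraries were at 38.6, 44.2, 25.2 and 14.5 CPM, 4.46-fold lower (adjusted p = 0.00012), below every ATRA and DMSO library. With GC and length offsets the fall of CEBPA was smaller, at a log2 fold change of -1.19 (adjusted p = 0.0045). CEBPE, a factor of late granulocyte maturation, was at 0.576 to 0.952 CPM with ATRA and 0.0815 to 0.441 CPM with Combo (-1.63 ± 0.41, adjusted p = 0.015), a call not held with GC and length offsets (adjusted p = 0.066). SPI1, which encodes PU.1, did not pass (-0.76 ± 0.29, adjusted p = 0.069) and changed sign with those offsets, to 0.058. IRF8, a factor of monocyte and dendritic fate, did not pass over both days (0.94 ± 0.43, adjusted p = 0.11). At day 4 alone IRF8 was at 67.5 and 91.7 CPM with ATRA and 293 and 384 CPM with Combo, a rise of 2.09 (adjusted p = 0.0011).

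Among azurophil granule proteins, the contents of the first granules of maturing myeloid cells, 8 of 12 were lower and none higher, with a median of -1.74. ELANE, neutrophil elastase, was at 19.8, 14.9, 3.21 and 7.46 CPM with ATRA and 2.9, 1.26, 0.485 and 0 CPM with Combo (log2 fold change -3.45 ± 0.50). PRTN3, proteinase 3, was 5.26-fold lower, and RNASE2, the eosinophil-derived neurotoxin, 5.42-fold lower. MPO, myeloperoxidase, was 2.56-fold lower (adjusted p = 0.011). With GC and length offsets these falls stayed called but were smaller. Their log2 fold changes were then -2.62 for ELANE, -1.56 for PRTN3, -2.37 for RNASE2 and -0.86 for MPO. The list median was -1.21 with the offsets, with 8 lower and 1 higher. Among receptors of neutrophils 6 of 11 were lower and 1 higher, CXCR4, a call lost without Combo day 4 replicate 2 (adjusted p = 0.16) and with GC and length offsets. CYBB, the catalytic subunit of the NADPH oxidase, was at 1.07, 0.987, 2.36 and 1.94 CPM with ATRA and 24.3, 20.2, 5.78 and 2.83 CPM with Combo. Its rise of 2.72 ± 0.64 had an adjusted p of 0.011, and 0.0503 with GC and length offsets. It was larger at day 2 than at day 4, with a difference of -3.42 between the days (adjusted p = 0.036).

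Monocyte, macrophage and dendritic genes split. In the monocyte and macrophage list 10 of 21 tested members were lower and 5 higher, with a median of -0.90 (-0.30 with GC and length offsets). LYZ, the lysozyme of monocytes, was at 57.5, 80, 31.2 and 25.3 CPM with ATRA and 210, 274, 110 and 110 CPM with Combo, 3.73-fold higher, and still below the 291 to 1032 CPM of DMSO. VCAN, a matrix proteoglycan of monocytes, rose by 4.14 ± 0.44 to 5.7, 11.1, 14.8 and 37.5 CPM, against 118 to 344 CPM with the inhibitor alone. TREM2, a lipid receptor of macrophages, was at 6.79, 9.91, 16.6 and 20.3 CPM with ATRA and 0.614, 1.14, 0.529 and 0.128 CPM with Combo, 19.4-fold lower. SPP1, osteopontin, was 13.7-fold lower. ITGAM, the CD11b integrin chain used to score differentiation, was at 21.4, 16.5, 99.6 and 107 CPM with ATRA and 44.8, 42, 95.9 and 63.2 CPM with Combo. It did not pass over both days (0.41 ± 0.30, adjusted p = 0.31), but rose by 1.21 at day 2 (adjusted p = 0.021). Of 13 dendritic cell genes 4 were lower and 2 higher over both days, and at day 4 7 were lower and 1 higher. CD1C, a lipid-presenting molecule, was at 1.32, 0.617, 99.8 and 70.4 CPM with ATRA and 3.92, 2.08, 14.1 and 9.96 CPM with Combo. Its difference between the days was -4.46 (adjusted p = 0.021). CD207, langerin, had 169 counts in the day 4 ATRA libraries and 0 with Combo, at least 55.4-fold lower over the group, and 0 in both day 2 groups, a call lost with DESeq2 and in the fit of 16 libraries. Bulk RNA cannot tell fewer cells of a type from less RNA per cell.

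Of 18 genes of pathogen sensing 6 were higher (33.3%, background 17.1%). The 3 lower (16.7%) were near the background of 15%. Apart from LY96, AIM2, the cytosolic DNA sensor, rose by 5.70 ± 0.41, to 3.14, 3.14, 3.75 and 4.18 CPM from at most 0.151 CPM. NLRC4, an inflammasome scaffold, rose by 1.33 ± 0.16. TLR4, the receptor that LY96 serves, was lower (-0.91 ± 0.17), at 47.2, 49.7, 105 and 84.4 CPM with ATRA and 34.6, 29.1, 38.1 and 41.6 CPM with Combo. Among class I presentation genes 6 of 16 were lower, among them NLRC5, their transactivator, and the peptide transporter TAP1 (-1.17 ± 0.25), and 1 higher, ERAP2, a call lost with GC and length offsets (adjusted p = 0.063). Among inflammatory cytokines and chemokines 9 of 20 were lower and 1 higher, the death ligand TNFSF10.

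Stem cell genes and KMT2A-fusion targets were higher more often than lower. Of 21 tested members 10 were higher and 1 lower, ADCY9, with a median of 0.49 (0.42 with GC and length offsets, with 12 higher). SOX4, a factor of leukaemic self-renewal, was at 90.5, 120, 69.6 and 65.5 CPM with ATRA and 266, 264, 247 and 418 CPM with Combo, 3.55-fold higher. MEIS1, a partner of HOXA9, was 1.43-fold higher (adjusted p = 0.012) and MEF2C 1.61-fold higher. HOXA9 did not pass (0.37 ± 0.14, adjusted p = 0.067). KIT, the stem cell factor receptor, rose by 0.92 ± 0.23, to 49.9 and 85.4 CPM at day 4 from 27.4 and 26.9 CPM, a call lost without either day 4 ATRA library (highest adjusted p = 0.066). BCL11A, a repressor best known for silencing fetal globin (chr2:60450520-60555154), was at 46.8 to 63.7 CPM with DMSO and fell with ATRA to 3.66 and 5.55 CPM at day 2 and 0.151 and 0.238 CPM at day 4. The Combo levels were 18.3, 25.7, 5.2 and 6.36 CPM, 8.54-fold above ATRA (adjusted p = 0.00097), between ATRA and DMSO on both days.

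Among survival genes BCL2 lay between ATRA and DMSO as BCL11A did. BCL2, the antiapoptotic protein that venetoclax targets, was at 363 to 588 CPM with DMSO and 88.9, 95.6, 103 and 74.1 CPM with ATRA. Combo libraries were at 159, 168, 200 and 294 CPM, 2.24-fold above ATRA (adjusted p = 0.0019), while the inhibitor alone lowered it by 0.58 (log2 fold change -0.58, adjusted p = 0.034). In the antiapoptotic list 2 of 10 were higher and 2 lower, 20% each way and near the background of 17.1% higher and 15% lower. In the proapoptotic list 2 of 23 were higher (8.7%) and 5 lower (21.7%). TNFRSF10B, the TRAIL receptor DR5, was higher, at 163, 129, 188 and 136 CPM against 67.7, 62.5, 48.8 and 41.9 CPM (1.51 ± 0.18).

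Growth and biosynthesis genes were lower. Of 28 DNA replication genes 18 were lower and none higher, with a median of -0.50. MCM2, a subunit of the replicative helicase, was 2.26-fold lower and MCM5 2.05-fold lower. Of 26 mitotic genes 8 were lower and 3 higher, against 15 lower and 1 higher with GC and length offsets. MKI67, the proliferation antigen, was among the higher (0.45 ± 0.12, adjusted p = 0.021), a call lost with GC and length offsets (adjusted p = 0.20) and without ATRA day 2 replicate 1, ATRA day 4 replicate 1 or Combo day 2 replicate 2 (highest adjusted p = 0.081). MYC was at 152, 264, 30.8 and 50.7 CPM with ATRA and 57.6, 100, 11.9 and 6.75 CPM with Combo, 3.32-fold lower (adjusted p = 0.0027), and 15 of 26 MYC and ribosome biogenesis genes were lower with none higher. Replication-dependent histones, listed as a check on RNA selection but also tied to DNA replication, were lower in 7 of 12 (58.3%, background 15%). Mitochondrially encoded genes, listed as a check on RNA quality, were higher in 4 of 13 (30.8%, background 17.1%). The part of RNA selection, RNA quality and the GC trend in these lists was not tested beyond the offsets, with which 22 replication, 12 MYC and 6 histone genes were lower.

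Cholesterol synthesis genes were lower with Combo. Of 22 members 18 were lower and none higher, with a median of -1.34 (-1.10 and 19 lower with GC and length offsets). SQLE, squalene epoxidase, was at 388, 310, 318 and 423 CPM with ATRA and 110, 78.8, 76.6 and 84.1 CPM with Combo, 4.10-fold lower. DHCR7, which carries out a late reduction of the pathway, was 7.43-fold lower. HMGCS1, an early enzyme, was 2.41-fold lower. In SQLE and HMGCS1 all 4 Combo libraries lay below all ATRA and DMSO libraries. With the inhibitor alone 8 of 22 were lower against DMSO (background 3.92% lower), and with ATRA alone 1 of 22 (background 13.2% lower). The difference of the inhibitor effects had a median of -0.998 and passed for 0 of the 22 genes by edgeR, with 9 at an unadjusted p under 0.05 and 3 called lower by DESeq2.

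The integrated stress response, through which ATF4 raises amino acid genes, had 7 of 18 members lower and none higher, and 4 without Combo day 4 replicate 2. TRIB3, a pseudokinase that ATF4 induces, was at 4.98, 2.96, 24 and 9.68 CPM with ATRA and 0.921, 0.856, 0.441 and 0 CPM with Combo, 13.5-fold lower. DMSO libraries were at 23.3 to 96.2 CPM. CHAC1, which degrades glutathione, was 3.78-fold lower.

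Other large falls were in secreted and metabolic genes. INHBA, the activin A subunit (chr7:41667168-41705834), was at 34.2, 23.2, 46.8 and 65.2 CPM with ATRA and 3.04, 2.77, 0.705 and 0.964 CPM with Combo, 22.5-fold lower. The inhibitor alone gave 9.97 to 18.2 CPM and DMSO 54.3 to 123 CPM, and the effect was larger with ATRA than without it by -2.25 on the log2 scale (adjusted p = 0.0021). CHI3L1, a secreted chitinase-like protein, was at 116, 126, 189 and 351 CPM with ATRA and 10.1, 19.2, 3.88 and 5.46 CPM with Combo. SUCNR1, the succinate receptor, was 33.8-fold lower. PLPP3, a lipid phosphatase, was at 4.52 to 7.16 CPM with ATRA, 0.193 to 0.58 CPM with Combo and at most 0.228 CPM with DMSO. The homeobox gene BARX1 was 19.8-fold lower, the kinesin KIFC3 18.3-fold and the zinc-finger gene ZNF595 16.5-fold. AKR1C2, an aldo-keto reductase, was 19.3-fold lower, with paralogs that may share its reads.

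LSD1 itself was not called at the RNA level. KDM1A was at 133, 161, 92.6 and 92.4 CPM with ATRA and 123, 150, 94 and 105 CPM with Combo (0.01 ± 0.13, adjusted p = 0.96, and of either sign across alternatives). An enzyme inhibitor need not alter the transcript, so this gene does not check the labels. Of 17 genes of the LSD1 and GFI1 complex 5 were higher (29.4%, background 17.1%), RCOR1, ZMYM2, GSE1, GFI1 and GFI1B. The 2 lower, HDAC1 and SNAI1, were 11.8%, near the background of 15%. GFI1 was at 312, 302, 395 and 421 CPM with ATRA and 482, 423, 548 and 515 CPM with Combo, 1.40-fold higher (adjusted p = 0.011).

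The effect at day 4 was tested against that at day 2, and 33 genes passed (0.18%), 2 with a larger value at day 4 and 31 with a lower one, while 1059 had an unadjusted p under 0.05. The count was 159 with DESeq2 and 265 with GC and length offsets, and leaving out 1 library gave 4 (without Combo day 2 replicate 1, among others) to 1402 (without Combo day 4 replicate 1). Interferon genes supplied 11 of the 31, among them OAS2 (-4.57), MX2 (-4.56) and IFIT5 (-5.27). IFIT5 was higher with Combo at day 2 (3.01) and lower at day 4 (-2.25), both at an adjusted p under 0.05. The 2 genes in the other direction were LHFPL2, a membrane protein, and FILIP1L, both already higher at day 2. LHFPL2 was at 4.02 to 4.77 CPM with ATRA, 14.4 and 11.4 CPM at day 2 and 62.3 and 73.1 CPM at day 4 with Combo.

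The effect of the inhibitor with ATRA was next set against its effect without ATRA, 552A against DMSO, which shares no library with it. In a fit of all 16 MV411 libraries the inhibitor alone changed 1900 of 19323 genes (9.83%). Of its 1142 higher genes 800 (70.1%) were also higher with Combo against ATRA, as were 3244 of all 19323 genes. These 800 were 24.7% of the 3244, against 5.91% of all genes higher with the inhibitor alone. Of its 758 lower genes 476 (62.8%) were lower with Combo against ATRA, as were 2557 of all 19323. These 476 were 18.6% of the 2557, against 3.92% of all genes lower with the inhibitor alone. Across the 12671 genes whose mean log2 CPM reached 1, the effects had a Pearson r of 0.64, given as a description since genes are not independent replicates. The difference of the effects passed for 450 genes (2.33%), 204 higher (1.06%) and 246 lower (1.27%) with ATRA present. Leaving out 1 library gave 218 (without ATRA day 2 replicate 1) to 926 genes (without Combo day 4 replicate 1), DESeq2 811 and GC and length offsets 1236. BCL11A did not pass without ATRA (0.19, adjusted p = 0.56), and the difference was 3.35 (adjusted p = 0.00018). ALDH1A3 differed by 3.29 and KDM7A by 3.04, each raised more with ATRA present. SLC38A1, an amino acid transporter, fell by 2.64 with the inhibitor alone (log2 fold change -2.64) and was higher by 1.07 ± 0.36 with ATRA present (adjusted p = 0.044), a call lost under 8 alternatives, among them leaving out ATRA day 2 replicate 2 or either day 4 ATRA library (highest adjusted p = 0.17), while the difference of 3.65 had an adjusted p of 0.00595. In the other direction SIGLEC11, an inhibitory lectin of macrophages, differed by -4.69, THBS1, thrombospondin, by -4.54, and MYBPH by -4.26. CD1C, with 0 counts in DMSO, also passed. THBS1 was at 28.8, 11.3, 263 and 164 CPM with ATRA and 9.8, 7.01, 11.9 and 11.4 CPM with Combo, a call lost without Combo day 4 replicate 2 (highest adjusted p = 0.11). It rose with the inhibitor alone, from 0.502 to 1.68 CPM to 1.7 to 6.4 CPM. It was 1 of 30 genes called higher with 552A against DMSO and lower with Combo against ATRA, while 12 genes, BCL2 among them, went the other way. ITGAM rose by 2.86 with the inhibitor alone, with a difference of -2.46 (adjusted p = 0.00082).

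**Figure D4:**
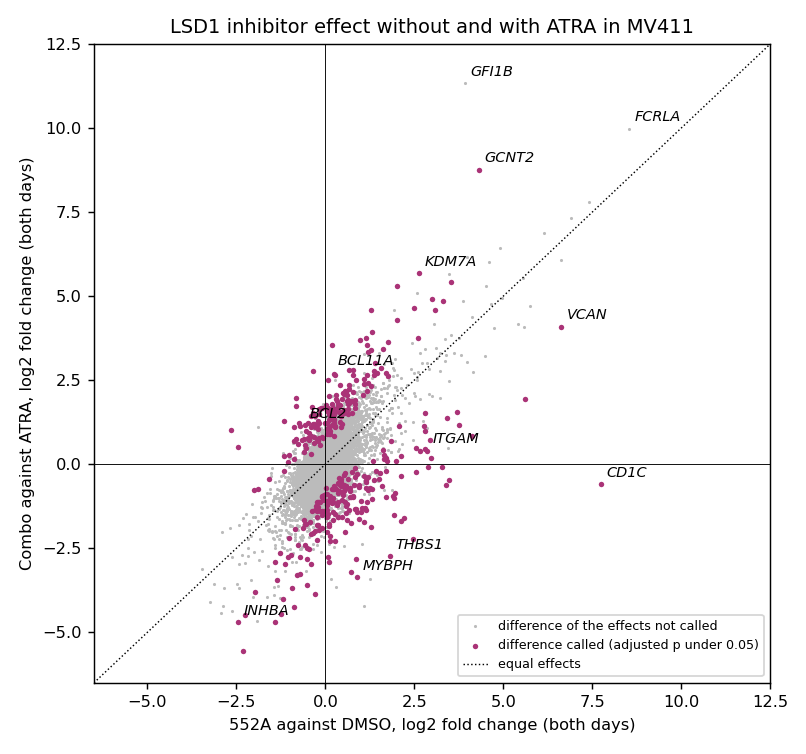
Log2 fold change of 12671 genes in MV411 for the inhibitor without ATRA (552A against DMSO, horizontal) and with ATRA (Combo against ATRA, vertical), both over 2 days. Each point is a gene, coloured where the difference of the effects passed an adjusted p of 0.05, and the dotted line marks equal effects, with GFI1B, GCNT2 and BCL11A above it and CD1C and THBS1 below.

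For several named genes the effects of ATRA against DMSO and of Combo against ATRA had opposite signs. The comparisons share the ATRA libraries, so their values are given side by side only. ATRA against DMSO, which called 4687 genes (24.3%), had log2 fold changes of -5.88 for BCL11A, -2.27 for BCL2, -2.07 for CD86 and -2.56 for KDM7A, where Combo against ATRA was positive. It was 5.90 for THBS1, 5.46 for MYBPH, 3.16 for CHI3L1 and 6.07 for TGM2, where Combo against ATRA was negative. Class II genes had positive values in both, for example 2.46 for HLA-DRA with ATRA and 3.71 with Combo against ATRA.

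The same drug addition was read in MOLM13 and THP1, other KMT2A-fusion lines, in a fit of the 24 ATRA and Combo libraries of the 3 lines. MOLM13 had 2129 genes called (9.76%) and THP1 5174 (23.7%), and the effect in MV411 differed from MOLM13 for 1252 genes (5.74%) and from THP1 for 6272 (28.8%). CD86, LY96, FCRLA and HLA-DRA were higher with Combo in all 3 lines, with log2 fold changes of 2.52, 5.38, 8.35 and 2.64 in MOLM13 and 3.35, 2.66, 3.35 and 2.11 in THP1. The interferon list differed: 8 of 34 were higher and none lower in MOLM13 (background 5.57% higher), and 20 of 34 higher and none lower in THP1 (background 12.7% higher). The MV411 effect was lower than that of MOLM13 for 25 of the 34 genes (background 2.85%) and lower than that of THP1 for 28 (background 14.1%). The effect on cholesterol genes was also lower in MV411 than in MOLM13 for 8 of 22 and than in THP1 for 17 of 22. For DNA replication genes the MV411 effect was higher, that is less negative, than that of THP1 for 21 of 28 (background 14.6% higher). Against MOLM13, 0 of 28 passed by edgeR, with 4 at an unadjusted p under 0.05 and 1 called by DESeq2. KDM7A, higher in MV411, did not pass in MOLM13 (0.47, adjusted p = 0.24), with a difference of 5.23. GFI1B did not pass in MOLM13, at 0 to 0.0911 CPM with ATRA and 0 to 0.319 CPM with Combo (adjusted p = 0.81), and had 0 counts in all 8 THP1 libraries.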

How the data were processed

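RNA from the cells was read after a stranded total RNA library preparation, per the labels. The authors' deposited table held whole-number read counts for 60552 gene rows in 96 libraries, with no normalization. Trimmomatic 0.36, HTSeq 0.6.0, STAR 2.4.2a and the GRCh38 build are named in the submitters' processing notes, with no role given. Annotation release and strand setting are not given in the sources used here. Reads of overlapping or antisense genes may therefore not be told apart. Of the rows 56994 matched GENCODE 29 identifiers, which gave names and positions, and the rest held 0.0417% of counts.

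Libraries were grouped by their labels. Combo was tested against ATRA over the 8 MV411 libraries with day as a factor, by edgeR's robust quasi-likelihood test (edgeR 4.0.16, limma 3.58.1, R 4.3.3) with TMM scaling, filterByExpr and Benjamini-Hochberg adjustment over all genes tested, and a gene was called at an adjusted p under 0.05. Adjusted p-values come from edgeR unless another tool is named. Fits with a group for each drug and day, of all 16 MV411 libraries and of 24 libraries of 3 lines gave the other comparisons. Standard errors are the log2 fold change over the square root of F. CPM in MV411 used the TMM factors of the 16-library fit. Offsets for GC content and gene length were fitted to each library, and 99.4% of tested genes had a GC content. The scripts were tested on simulated data. Replicates of a group differed by more than sampling noise, with chi-square per degree of freedom of 19.9 to 95.1, so none was treated as the same library deposited again. Repeat preparations of 1 RNA could differ as much.

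For a group with 0 counts the bound used 3 counts over the group, and for 1 to 3 counts the ratio has an exact 95% interval that covers counting error only. Libraries held 15.18 M to 29.25 M counts, which sets the precision of low levels.

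Genes were named by rule: for protein-coding genes that were called, the 14 top changes in each direction where mean log2 CPM reached 1, with libraries not overlapping on either day and a call kept without Combo day 4 replicate 2; up to 3 called members of each of 32 lists by smallest p; the 4 largest called differences each way; and a set of fixed genes. List members named beyond the rule, and those named for their promoter windows, were chosen after their values were seen. The comparison, the lists and the fixed genes were chosen with earlier results of these data known. Alternatives were RLE scaling, no filterByExpr, DESeq2 1.42.0, the offsets, a replicate block, a fold minimum of 2, other sets of libraries and leaving out each library. Some list members that the rule would name are not reported here.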

Additional observations from a re-analysis of the deposited data

Results flagged for a closer look

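Differences of the effect of adding the inhibitor to ATRA were tested between the days, between ATRA and no ATRA, and between cell lines, and the genes below passed with the largest values in log2 units. Where a group held 0 to 3 counts, the fitted value depends on the prior count.

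Between day 4 and day 2, 33 genes passed. The effect was higher at day 4 for LHFPL2 (2.48) and FILIP1L (2.45). It was lower at day 4 for the interferon-stimulated genes IFIT5 (-5.27), OAS2 (-4.57) and MX2 (-4.56) and for the lipid-presenting CD1C (-4.46).

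Between the inhibitor with ATRA and without it, 450 genes passed. The effect was higher with ATRA for GCNT2 (4.44, with 0 counts in the ATRA libraries), the amino acid transporter SLC38A1 (3.65), BCL11A (3.35) and the retinaldehyde dehydrogenase ALDH1A3 (3.29). It was lower with ATRA for CD1C (-8.34, with 0 counts in the DMSO libraries), SIGLEC11 (-4.69), THBS1 (-4.54) and MYBPH (-4.26).

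Between MV411 and MOLM13, 1252 genes passed. The effect was higher in MV411 for GCNT2 (5.58), the glycoprotein hormone STC2 (5.39), the histone demethylase KDM7A (5.23) and HDGFL3 (4.50). In MV411, STC2 had 0 counts with ATRA and only 5 with Combo, a bound of at least 1.7-fold. HDGFL3 had 2 counts with ATRA and 26 with Combo. The effect was lower in MV411 for CEACAM6 (-7.98), the lysosomal protease LGMN (-6.73), ENHO (-5.90) and the chemokine CXCL10 (-5.71). CEACAM6 had only 11 counts with ATRA and 1 with Combo in MV411.

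Between MV411 and THP1, 6272 genes passed. The effect was higher in MV411 for FCRLA (6.61, with 1 count with ATRA), GCNT2 (6.24), the sorting nexin SNX7 (5.38, with 0 counts with ATRA) and IPCEF1 (5.18). It was lower in MV411 for osteopontin SPP1 (-6.79), the protease CTSL (-6.51, with 2 counts with Combo), SIGLEC1 (-6.42) and the chemokine CCL3 (-6.13).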

How the results depend on the processing

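The split of 3128 higher and 2750 lower genes became 1787 and 1168 with a minimum of 2-fold, 2951 and 2945 with RLE scaling, 3165 and 3427 with DESeq2, and 1703 to 3398 and 1231 to 3326 when 1 library was left out. The cause of each move was not tested, other than that fewer libraries leave fewer residual degrees of freedom. The median of all genes was -0.01 with TMM, -0.03 with RLE and 0.03 with the offsets.

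With GC and length offsets the counts were 3565 at day 2, 5528 at day 4, 265 for the difference between days, 1236 for the difference from the inhibitor without ATRA, and 2479 and 6041 for the differences from MOLM13 and THP1. The difference between days passed for 51 genes with no filterByExpr and 159 with DESeq2, and the difference from the inhibitor without ATRA for 811 with DESeq2. Fits of the 4 libraries of a day gave 3578 genes at day 2 and 1294 at day 4. Combo day 4 replicate 2 and DMSO day 4 replicate 2 had the lowest GC slopes of the MV411 libraries. Without both, an alternative chosen after seeing the data, the difference from the inhibitor without ATRA passed for 325 genes.

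Leaving out 1 library gave 195 to 3918 genes at day 2 and 896 to 8624 at day 4. The lowest came without ATRA day 2 replicate 2 and without ATRA day 4 replicate 2, and the highest without Combo day 4 replicate 2 and without Combo day 4 replicate 1. It gave 4 to 1402 genes for the difference between days and 218 to 926 for the difference from the inhibitor without ATRA, both highest without Combo day 4 replicate 1. The lines differed for 737 to 2739 genes (MOLM13) and 3911 to 8517 (THP1).

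Replicate numbers were also fitted as a replicate block. The differences between replicates correlated across genes between ATRA and Combo at 0.33 at day 2 and -0.19 at day 4 (0.31 and 0.074 after GC and length correction). The labels tie no numbers across drugs, and whether the numbers pair the libraries is not settled by these values. The replicate block gave 2507 higher and 1998 lower genes, 305 at day 2, 1993 at day 4, 4 for the difference between days and 396 for the difference from the inhibitor without ATRA, and with the offsets 3729 higher and 3198 lower. With the block and the offsets together the calls of CYP26A1, TRIB3 and CHAC1 were lost (adjusted p = 0.052, 0.054 and 0.060).

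Of 140 named genes 30 lost a call under at least 1 alternative, 12 of them with the offsets. KDM1A, with no call, changed sign with RLE (-0.0073), no filterByExpr (-0.0076), DESeq2 (-0.0077), all 16 libraries (-0.00024) and on leaving out a library (-0.046 to 0.083). IFIT5 changed sign with DESeq2 (0.33), all 16 libraries (0.37) and on leaving out a library (-1.03 to 0.94). SPI1 changed sign with the offsets (0.058), also within the replicate block (0.064).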

Other observations

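Other gene groups moved in both directions in MV411. Among cell cycle inhibitors 4 of 13 were higher and 4 lower with Combo than with ATRA (30.8% each way, background 17.1% higher and 15% lower). The lower were GADD45B, CDKN1A, CDKN2D and BTG2, and the higher RB1, CCNG2, BTG1 and CDKN2B. At day 4, 3 were higher and 5 lower (background 10.5% higher and 8.73% lower). RB1, the retinoblastoma repressor, was at 120, 127, 165 and 143 CPM with ATRA and 219, 224, 207 and 330 CPM with Combo (0.83 ± 0.15, adjusted p = 0.0038). CCNG2, a cyclin of quiescent cells, rose by 1.20 ± 0.20 and the antiproliferative BTG1 by 0.86 ± 0.16, and all Combo libraries of RB1, CCNG2 and BTG1 lay above all ATRA libraries.

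Of 24 lysosome and phagocytosis genes 7 were lower and none higher, and with GC and length offsets 7 were lower and 5 higher. CTSD, the protease cathepsin D, was at 157, 101, 378 and 494 CPM with ATRA and 89.5, 45.7, 145 and 40.5 CPM with Combo, 2.98-fold lower, a call lost without ATRA day 4 replicate 2 or Combo day 2 replicate 2. In the heat shock and unfolded protein list 4 of 12 were lower and 1 higher. DNAJB1, a heat shock cochaperone, was at 151 to 156 CPM with ATRA and 89.9 to 108 CPM with Combo, 1.51-fold lower (adjusted p = 0.0047).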
